A study of Mus musculus with 51 samples.

Results

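Genes that build the cell's RNA-synthesising machinery, and others whose symbols start alike, were followed across cochlear regions of mice exposed to noise or to a mock exposure. Members were all listed genes whose symbol starts with Polr1, Polr2, Polr3, Supt, Tcea or Gtf, or with Taf or Med and a digit, and 46 of the 6248 genes in the files met this rule, which used no measured value. The values came from GeoMx, in which light frees barcodes from regions picked on a section and sequencing counts them. Male CBA/CaJ mice of 16 weeks received either broadband noise at 100 dB SPL for 2 h or a mock exposure without noise, with 5 animals per treatment, and 6 µm fresh-frozen cochlear sections were used. The titles add 4 h to the exposure, whereas the design text has the animals killed straight after it, so the time of collection is not settled. The regions used were 16 mock neuron, 12 noise neuron, 14 mock supporting-cell and 8 noise supporting-cell regions. A thirteenth noise neuron region, replicate 6, held the same value for every gene and was left out. No label ties a region to an animal, every group held more regions than the 5 animals, and some regions therefore share an animal. No p-value below accounts for animals shared between areas, and those for noise against mock come out too small. Of the main limma fits, those between region types took the captured area as a block. The test of the difference in noise effect did not. No captured area held both treatments, so a difference between sections and the effect of noise cannot be told apart. Fewer cells of a type and less RNA per cell cannot be told apart in such regions either.

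Transcription in animal cells rests on 3 RNA polymerases. Polymerase I makes the large ribosomal RNA precursor, polymerase II makes messenger RNA, and polymerase III makes transfer RNA, the smallest ribosomal RNA and other short transcripts. Several small subunits are common to all of these enzymes. General transcription factors such as TFIID, whose subunits are the TAFs, and TFIIH place polymerase II at promoters and open the DNA. Mediator is a large complex that links factors bound at enhancers to polymerase II, and elongation factors such as FACT and TFIIS help the enzyme through nucleosomes and pauses. Such genes are used by nearly every cell type and are often taken as evenly expressed.

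The 46 members comprised 17 polymerase subunits, 12 Mediator subunits, 10 genes of initiation factors (Gtf and Taf), the 4 TFIIS-like genes Tceal3, Tceal5, Tceal8 and Tceal9, and Supt16, Supt7l and Tcea1. Many well-known genes of the machinery, such as the largest subunits of polymerases II and III, are not among the rows analysed here. The regions were shallow, with 10147 to 58022 recovered reads in mock and 12128 to 88156 in noise neuron regions, and 9607 to 22926 in mock and 11770 to 25605 in noise supporting-cell regions. Signal is the deposited value, scaled so that the upper quartile of each region equals 3.12, and its lowest value in a region is 1 read, a floor below which no gene falls. That read was worth a signal of 0.31 to 1.56 in mock and 0.21 to 1.56 in noise neuron regions. In both groups of supporting-cell regions it was worth 0.62 to 1.56. Counts of regions above the floor therefore depend on depth, with median reads of 23494 in mock neuron and 12885 in mock supporting-cell regions. The median region had 31.3%, 19.2%, 51.6% and 35.4% of its genes at that floor, in the same order of groups. Marker genes followed the labels for neurons: the summed signal of 9 listed neuronal markers was 153 to 374 in mock neurons against 41.6 to 108 in mock supporting cells, and 99.8 to 222 in noise neurons against 30.4 to 92.3 in noise supporting cells. The regions labelled supporting cells carried Schwann and satellite glia genes, with a summed signal over 8 listed markers of 93.6 to 173 (mock) and 43.7 to 76.4 (noise) against 20.8 to 45.7 and 16.6 to 30.1 in neurons. Of 5 markers of organ of Corti supporting cells only Sox2 was listed, and it lay at or below background in all 4 groups. Slc17a8 of hair cells and Hba-a1 of blood, each the only 1 of 5 markers listed, also lay at or below background in every group, and none of 5 macrophage markers was analysed here. The 3 listed bone and connective tissue genes summed to 21.8 to 45.2 in mock and 10.4 to 29.7 in noise neurons, and to 14.0 to 45.7 in mock and 7.28 to 24.9 in noise supporting cells. Neuronal markers in neuron regions and glial markers in supporting-cell regions were thus lower after noise by range, and their part in the noise estimates below was not tested.

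Most of the machinery was measured close to background. The background was set by 568 olfactory receptor genes, which are mostly silent outside the nose, as the 0.95 quantile of their group means on the log2(signal + 1) scale. This quantile was 1.735 in mock and 2.03 in noise neurons, and 1.98 in mock and 2.21 in noise supporting cells. As the background differed between groups, the counts that follow do not compare expression between them. By this measure 6 members stood above background in mock neurons (13.0% of 46, where 31.4% of all other genes did), namely Gtf2i, Polr2b, Polr2g, Polr2m, Tceal3 and Tceal9. In noise neurons 3 members did so (6.52% against 16.8% of other genes), namely Polr2g, Polr2m and Tceal3. In mock supporting cells Polr2m alone did (2.17% against 11.9%), and in noise supporting cells Polr2g and Polr2m did (4.35% against 7.02%). Polr2m was the only member above background in all 4 groups, and 40 members were above it in none. The median member had more than the floor of 1 read in 10.5 of 16 mock neuron, 9 of 12 noise neuron, 6 of 14 mock supporting-cell and 5 of 8 noise supporting-cell regions. At 1 to a few reads per gene and region, an absent change cannot be told from one too small to see.

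**Figure D1:**
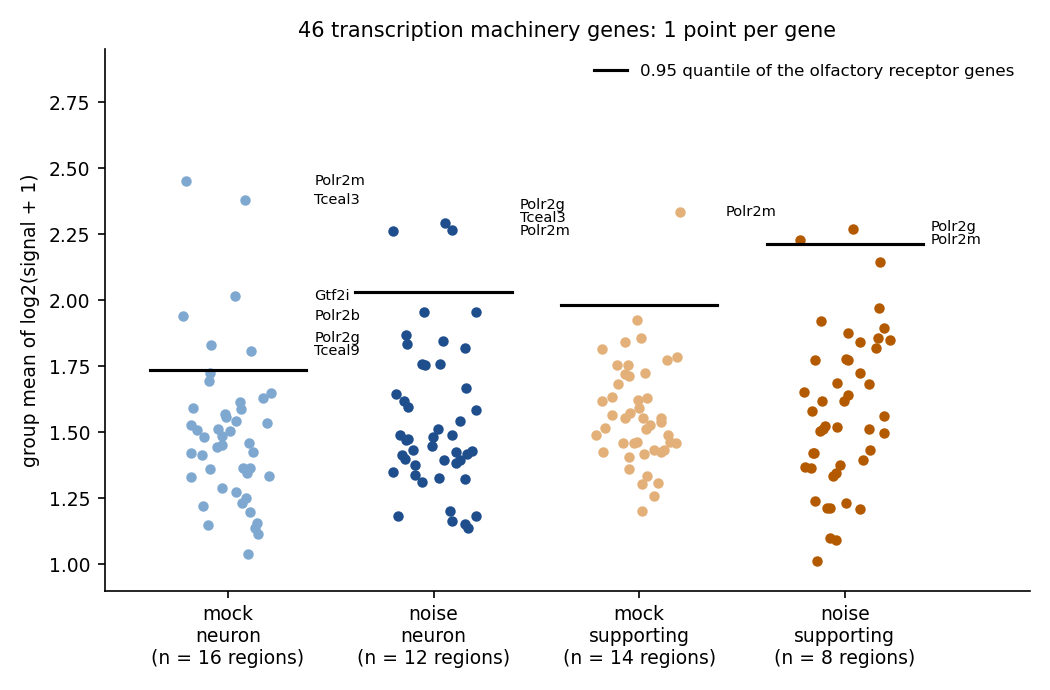
Group mean of log2(signal + 1) for each of the 46 members (1 point per gene) in the 4 groups, with a black line at the 0.95 quantile of 568 olfactory receptor genes in that group. The points above the line are named: 6 members in mock and 3 in noise neuron regions, 1 in mock and 2 in noise supporting-cell regions.

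A filter on low values (mean signal at or above the 0.25 quantile of genes, 1.85) left 31 members among 4686 genes for testing. The 15 members below it were the 3 TFIIH genes Gtf2h1, Gtf2h2 and Gtf2h5, Gtf3c1 of the polymerase III factor TFIIIC, the TAFs Taf2, Taf3, Taf5 and Taf12, the Mediator genes Med8, Med12l and Med21, Polr3b, the second largest subunit of polymerase III, Tcea1, which encodes TFIIS, and Tceal5 and Tceal8. Taf5 lay just outside the filter at a mean signal of 1.84 and Med27 just inside at 1.86. Counts below refer to the 31 tested members. The 2 groups compared overlapped in signal for all 31 tested members in each comparison. Groups that do not overlap were rare over all genes too: 0% of 4686 for noise in neurons, 0.0213% (1 gene) for noise in supporting cells, 0.619% (29) for region types under mock and 0.363% (17) after noise.

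In neurons, noise was followed by no change in the machinery that passed the test. With limma, 0 of 31 members were called at an adjusted p below 0.05 (Benjamini-Hochberg over all genes tested), where 0.662% of all genes were (31 of 4686). By direction 17 members were higher and 14 lower after noise, and their median log2 fold change was 0.05 against 0.02 over all genes. These tests take regions that share animals as independent. An unadjusted p below 0.05 was reached by 1 of the 31, Polr2g, and by 13.5% of all genes. DESeq2 on the recovered reads called 0 members (1 with an unadjusted p below 0.05), and edgeR called 1, Polr2m (2 with an unadjusted p below 0.05), described further on. The estimates of single members were wide: the 95% intervals reached from -0.61 at the lowest to 0.87 at the highest on the log2 scale, so changes of moderate size in either direction were within them.

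Polr2g, a subunit of the polymerase II stalk where the new RNA leaves the enzyme, had the largest estimate in both region types. In mock neurons its signal ran from 0.78 through a median of 2.96 to 5.20, and in noise neurons from 1.04 through 4.11 to 7.80. The noise neuron regions reached higher, but the groups overlapped over most of their range. Group means were 2.72 ± 1.14 (SD, n = 16) and 4.32 ± 2.09 (SD, n = 12), a log2 fold change of 0.46 ± 0.21 (SE) with a 95% interval of 0.06 to 0.87 and an adjusted p of 0.300 by limma. In mock supporting cells the signal ran from 1.04 through 2.60 to 5.20, and in noise supporting cells from 1.04 through 3.82 to 10.9. These groups overlapped as well, with means of 2.73 ± 1.35 (SD, n = 14) and 4.46 ± 3.04 (SD, n = 8), a log2 fold change of 0.46 ± 0.24 (SE), a 95% interval of -0.02 to 0.93 and an adjusted p of 0.514 by limma. Polr2g thus missed the threshold in both region types, and over the alternatives tried its adjusted p lay between 0.117 and 0.816 in neurons and between 0.310 and 0.903 in supporting cells.

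Other polymerase subunits in neurons leaned the same way without passing the test. Of the 16 tested polymerase subunits 12 were higher and 4 lower after noise, with a median log2 fold change of 0.17. All 16 symbols fall between N and Slc26 in the alphabet, and in these files the noise estimate differs along the alphabet: the median over the 2727 genes of that stretch was 0.12, against -0.19 over 988 genes from A to K. That stretch also covers the symbols of the olfactory receptor genes used as background. Their mean log2(signal + 1) was 1.41 in mock and 1.60 in noise neurons, and 1.65 in mock and 1.71 in noise supporting cells. The lean of the subunits is therefore given beside that of their neighbours in the list, and the cause of the subunits' lean was not tested. Polr3e, a polymerase III subunit, had an estimate of 0.34 ± 0.20 (SE) and, by limma, an adjusted p of 0.434, from a mean signal of 2.10 ± 1.32 (SD, n = 16) in mock to 2.86 ± 1.30 (SD, n = 12) in noise neurons. Polr2i, the small polymerase II subunit linked to transcriptional fidelity, averaged 1.48 ± 0.57 in mock and 2.10 ± 0.88 in noise neurons (SD), an estimate of 0.31 with an adjusted p of 0.474 by limma. Polr1a and Polr1b, the catalytic subunits of polymerase I, had estimates of 0.17 and 0.18, and Polr2f and Polr2k, shared by all 3 polymerases, of 0.23 and 0.12. Polr2b, which forms the active site of polymerase II together with the largest subunit, had an estimate of -0.12 with an interval of -0.52 to 0.28.

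The remaining families in neurons showed no common direction. Of 9 tested Mediator genes 3 were higher and 6 lower after noise (median -0.07, against -0.03 over the 358 genes from L to M). The largest negative estimate was that of Supt7l, a subunit of the histone-modifying complex SAGA, at -0.24 (adjusted p 0.608 by limma), followed by Polr2m at -0.19 and Polr2j at -0.17. Gtf2i, which encodes the multifunctional factor TFII-I, stood at -0.06, Taf10, a subunit of both TFIID and SAGA, at 0.12, and Supt16, a subunit of the histone chaperone FACT, at 0.07. Tceal3 and Tceal9 were at -0.11 and -0.05.

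In supporting cells likewise 0 of 31 members were called by limma (0 with an unadjusted p below 0.05, which 10.1% of all genes reached), where 0.363% of all genes were (17 of 4686). edgeR and DESeq2 on the recovered reads also called 0 members, with 0 at an unadjusted p below 0.05. Of the members 18 were higher and 13 lower after noise, with a median log2 fold change of 0.10 against -0.03 over all genes, and the intervals of single members spanned -0.73 to 0.93. These p-values, too, treat regions that share animals as independent. Polymerase subunits again leaned upward, 11 higher and 5 lower, with a median of 0.14 against 0.04 over the stretch from N to Slc26. After Polr2g the largest estimates were those of Polr3f, part of a polymerase III subcomplex used in initiation, and of both polymerase I catalytic subunits. Polr3f went from 2.02 ± 1.32 (SD, n = 14) to 3.06 ± 1.68 (SD, n = 8), an estimate of 0.43 with an adjusted p of 0.502 by limma. Polr1a ran from 1.04 to 4.68 in mock and from 2.08 to 5.20 in noise supporting cells (medians 2.60 and 3.51), an estimate of 0.39 with a 95% interval of -0.07 to 0.85. Polr1b ran from 1.04 to 4.16 in mock and from 0.78 to 4.68 in noise supporting cells (medians 1.56 and 3.12), an estimate of 0.39 with an interval of -0.03 to 0.82. Of 8 noise regions Polr1a was above the floor in 8 and Polr1b in 6, and of 14 mock regions in 8 and 4. The genes at the floor also made up a smaller share of the noise than of the mock supporting-cell regions (35.4% against 51.6%), and its part in these shifts was not tested.

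On the lower side in supporting cells, Taf10 had an estimate of -0.29, Supt16 of -0.28, Polr2i of -0.27 and Polr2f of -0.27, with adjusted p-values between 0.731 and 0.763 by limma. Of 9 Mediator genes 5 were higher and 4 lower (median 0.10). Gtf2i stood at -0.13, Polr2b at 0.15, Polr2k at 0.22, Tceal9 at 0.24 and Tceal3 at 0.32, all within intervals that include 0.

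**Figure D2:**
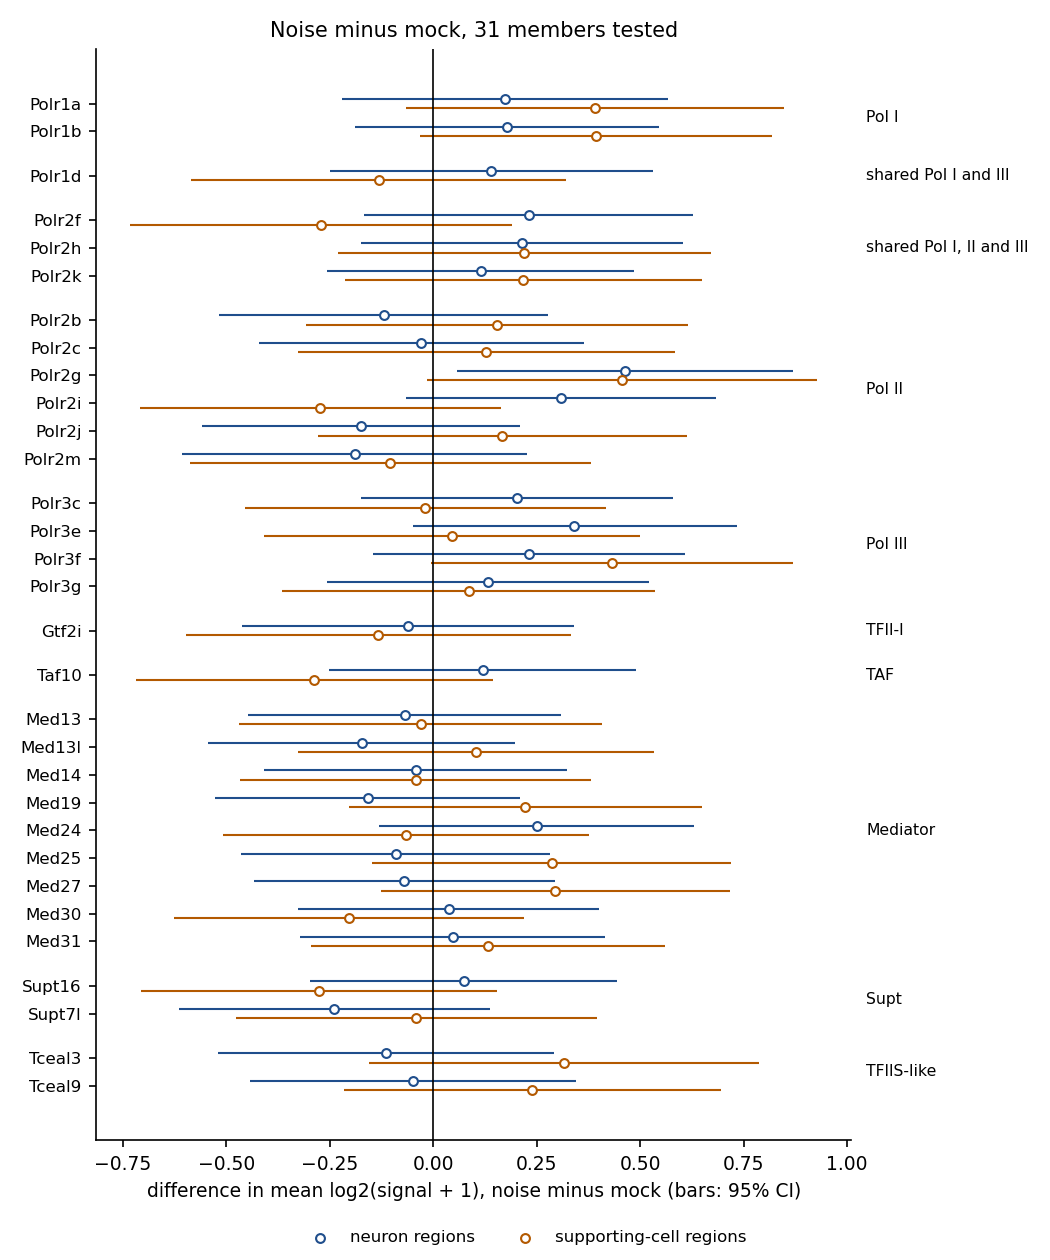
Difference in mean log2(signal + 1) between noise and mock for the 31 tested members, grouped by complex, with 95% confidence intervals, in neuron regions (blue) and supporting-cell regions (orange). Open circles mark members that did not pass an adjusted p of 0.05, which is all of them in both region types; the interval of Polr2g in neurons is the only 1 that leaves out 0.

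The effect of noise was next compared between region types. No gene of the 4686 was called for this difference by limma (0%, with 263 at an unadjusted p below 0.05), and edgeR and DESeq2 called 0 genes as well (185 and 121 at an unadjusted p below 0.05). Accordingly 0 of 31 members were called, with 1 at an unadjusted p below 0.05 by limma and 0 by edgeR and DESeq2. The median member difference, neurons minus supporting cells, was -0.09 against 0.05 over all genes. Polr2i had the largest positive difference, 0.58 with an interval of 0.01 to 1.16 and an adjusted p of 0.857 by limma, since its estimate was positive in neurons and negative in supporting cells. Polr2f followed at 0.50 and Taf10 at 0.41, and the lowest were Tceal3 at -0.43, Med19 at -0.38 and Med25 at -0.38. No member was thus detected whose noise effect differed between region types.

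Region type separated the members slightly more. Under mock exposure 2 of 31 members were called by limma with the captured area as a random block, where 20.0% of all genes were (939 of 4686), so the members' share lay below that of all genes. Tceal3 was higher and Polr2i lower in neurons. Here too the regions outnumber the animals. The members' median log2 fold change, neurons minus supporting cells, was -0.03 against -0.05 over all genes, with 11 members higher and 20 lower. In the same comparison neuronal markers were higher and glia markers lower in neurons, by the summed signals given above, and their part in single members was not tested.

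Tceal3 belongs to a family of X-linked genes that resemble the elongation factor TFIIS. It was the member that told the region types apart most clearly. In the 16 mock neuron regions its signal ran from 2.08 through a median of 4.42 to 6.24, and in the 14 mock supporting-cell regions from 1.04 through 1.56 to 6.24. In the supporting cells 1 region alone reached the upper neuronal values, and the next highest stood at 2.08, the lowest value of the neurons. All 16 mock neuron regions held more than the floor of 1 read, against 5 of 14 mock supporting-cell regions. The means were 4.35 ± 1.27 (SD, n = 16) and 1.91 ± 1.29 (SD, n = 14), a log2 fold change of 0.92 ± 0.19 (SE), with a 95% interval of 0.54 to 1.30 and an adjusted p of 4.07e-05 by limma. Within the 14 mock areas that held both region types, Tceal3 was higher in the neuron region in 13 and lower in 1, a mean difference of 0.93 ± 0.69 (SD) and a two-sided exact sign permutation p of 0.00146, a test chosen after the data were seen. It was run on the values that gave the call, so it is no separate support, and some of these areas share an animal. After noise the ordering was similar but looser: noise neurons ran from 2.08 through 4.31 to 5.54 and noise supporting cells from 1.04 through 2.08 to 4.68. There the log2 fold change was 0.49 ± 0.24 (SE), with an interval of 0.01 to 0.97 and an adjusted p of 0.252 by limma, and within 7 areas 4 were higher, 2 lower and 1 equal in the neuron region (exact sign permutation p 0.125, where 0.0156 is the smallest possible). The difference between the mock and noise values of Tceal3, which is the -0.43 given above, did not pass the test.

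Tceal3 lies on chromosome X at 136590837 to 136668378 (GRCm38.p6), in 1 cluster with Tceal8, Tceal5 and Tceal9. Its promoter is shown because Tceal3 carried the clearest difference among the members. The most upstream of the gene's 250-base windows from RefSeq (GRCm38.p6, chrX:136590592-136590841, plus strand) is printed below. It ends a few bases inside the gene span given above. Capitals mark GC boxes (GGGCGG on either strand), 2 of them overlapping.

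Tceal3: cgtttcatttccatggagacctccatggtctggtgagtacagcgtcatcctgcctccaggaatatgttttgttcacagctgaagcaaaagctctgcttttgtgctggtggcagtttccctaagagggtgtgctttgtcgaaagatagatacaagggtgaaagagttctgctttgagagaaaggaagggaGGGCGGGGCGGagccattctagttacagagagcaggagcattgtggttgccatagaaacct

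Its neighbours in the cluster gave no call. Tceal9 ran from 0.52 through 3.12 to 5.46 in mock neurons and from 1.04 through 1.82 to 4.68 in mock supporting cells, an estimate of 0.19 with an interval of -0.19 to 0.56. Tceal5 and Tceal8 lay below the filter, with means of 1.33 ± 0.75 and 1.59 ± 0.95 in mock neurons and 1.72 ± 0.68 and 1.57 ± 0.75 in mock supporting cells (SD). Genes of this family share much of their sequence, probe sequences were not used here, and how well the probes tell them apart is uncertain.

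Polr2i showed the opposite order, on fewer reads. Its signal ran from 0.78 through 1.56 to 3.12 in mock neurons and from 1.04 through 2.60 to 5.20 in mock supporting cells, and the groups overlapped. Only 8 of 16 neuron regions and 8 of 14 supporting-cell regions held more than 1 read, and the others sat at the floor of 1 read. That read was worth a signal of 0.31 to 1.56 in mock neuron and 0.62 to 1.56 in mock supporting-cell regions. The part of the floor in the difference was not tested. Means were 1.48 ± 0.57 (SD, n = 16) and 2.68 ± 1.39 (SD, n = 14), a log2 fold change of -0.51 ± 0.18 (SE), with an interval of -0.86 to -0.15 and an adjusted p of 0.0291 by limma. The call was lost with the mean of the olfactory receptor genes added to the model (-0.33, adjusted p 0.536) and with the negative probe subtracted (-0.46, adjusted p 0.215). It was also lost with edgeR (-0.86, adjusted p 0.0663) and DESeq2 (-1.03, adjusted p 0.0503), with larger estimates on the scale of reads; DESeq2 called 11.1% of all genes there. The limma call was further lost without any 1 of mock supporting-cell replicates 8, 9, 10 or 13, where the adjusted p reached 0.0695. Within the 14 mock areas Polr2i was lower in the neuron region in 10, higher in 2 and equal in 2 (exact sign permutation p 0.0156, chosen after the data were seen). As for Tceal3, that test was run on the values that gave the call and is no separate support. After noise no such order was seen, with an estimate of 0.07 and an adjusted p above the threshold in every alternative, and 3 of 7 areas lower in the neuron region.

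The promoter of Polr2i is given for comparison with that of Tceal3. The gene lies on chromosome 7 at 30232074 to 30233387, and the 250 bases before it (RefSeq, GRCm38.p6, chr7:30231824-30232073, plus strand) carry in capitals 2 CCAAT boxes (CCAAT) and 1 GC box.

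Polr2i: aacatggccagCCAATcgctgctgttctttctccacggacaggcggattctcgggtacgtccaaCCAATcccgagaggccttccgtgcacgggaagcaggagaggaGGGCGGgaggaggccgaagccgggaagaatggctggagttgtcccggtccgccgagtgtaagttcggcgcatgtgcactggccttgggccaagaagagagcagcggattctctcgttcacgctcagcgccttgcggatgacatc

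**Figure D3:**
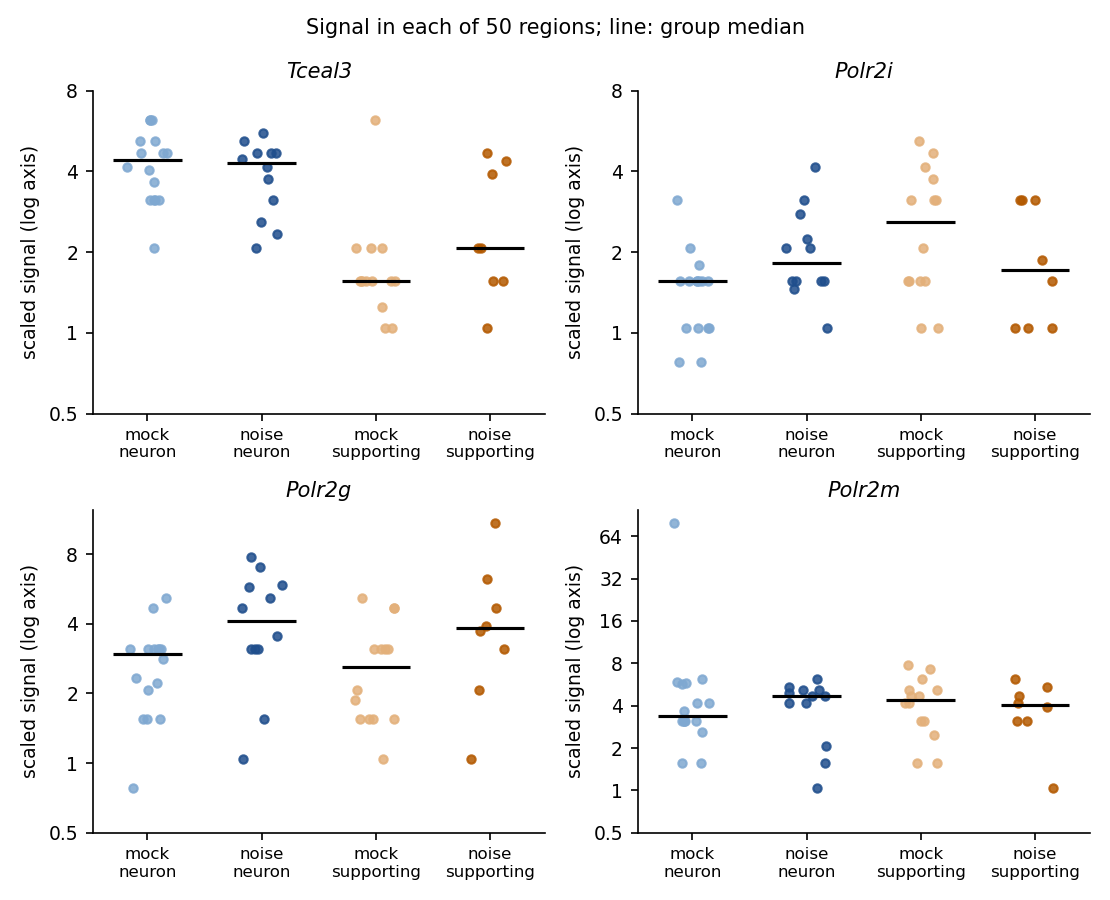
Scaled signal in each of the 50 regions (log axis) for Tceal3, Polr2i, Polr2g and Polr2m in the 4 groups, with a line at the group median. Under mock, all Tceal3 supporting-cell values but 1, at 6.24, lie at or below the lowest neuron value of 2.08, whereas after noise the region types overlap over most of their range; Polr2m has 1 mock neuron region at 79.5 while all others are at 7.80 or below.

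Few other members approached the threshold between region types under mock exposure. Taf5, just below the filter, would be called lower in neurons without it (log2 fold change -0.51, adjusted p 0.0239 by limma). Its mean passed the filter in 22 of 50 leave-one-region-out fits, and Taf5 was called in these. Passing depended on which region was left out, so these fits are no separate support for the call. Its signal averaged 1.22 ± 0.54 in mock neurons and 2.34 ± 1.48 in mock supporting cells (SD), with 6 of 16 and 6 of 14 regions above 1 read. The other regions sat at the floor of 1 read, which was worth less signal in some mock neuron regions than in any mock supporting-cell region. The part of the floor in the difference was not tested. Of the Mediator genes, Med27 and Med19 had the largest positive estimates, 0.34 and 0.29. Med27 exceeded 1 read in 10 of 16 neuron and 1 of 14 supporting-cell regions, with adjusted p-values of 0.161 in the main limma fit, 0.0468 with the olfactory receptor genes in the model and 0.00231 with the negative probe subtracted. Med19 likewise passed in those settings alone, with adjusted p-values of 0.257, 0.0378 and 0.0158 in the same order. Taf10 at -0.32 and Polr3e at -0.24 were the lowest after Polr2i, and neither passed. All 4 tested polymerase III subunits were lower in neurons on average (median -0.17), close to the median of -0.15 over all genes from N to Slc26.

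After noise, 0 of 31 members were called between neurons and supporting cells by limma (2 with an unadjusted p below 0.05, Tceal3 and Polr2j, beside 19.0% of all genes), where 8.28% of all genes were (388 of 4686). edgeR and DESeq2 also called 0, each with 4 members at an unadjusted p below 0.05. The median was -0.03 against 0.05 over all genes, with 14 members higher and 17 lower in neurons. Polr2j, which pairs with Polr2c in assembly of polymerase II, had the lowest estimate: its signal ran from 0.78 through 1.56 to 3.12 in noise neurons and from 1.56 through 2.73 to 4.16 in noise supporting cells, with an estimate of -0.50 ± 0.23 (SE) and, by limma, an adjusted p of 0.196. Polr1b at -0.42 and Polr1a at -0.39 followed, both with intervals that include 0. On the positive side came Polr2f at 0.30 and Polr1d, shared by polymerases I and III, at 0.25.

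**Figure D4:**
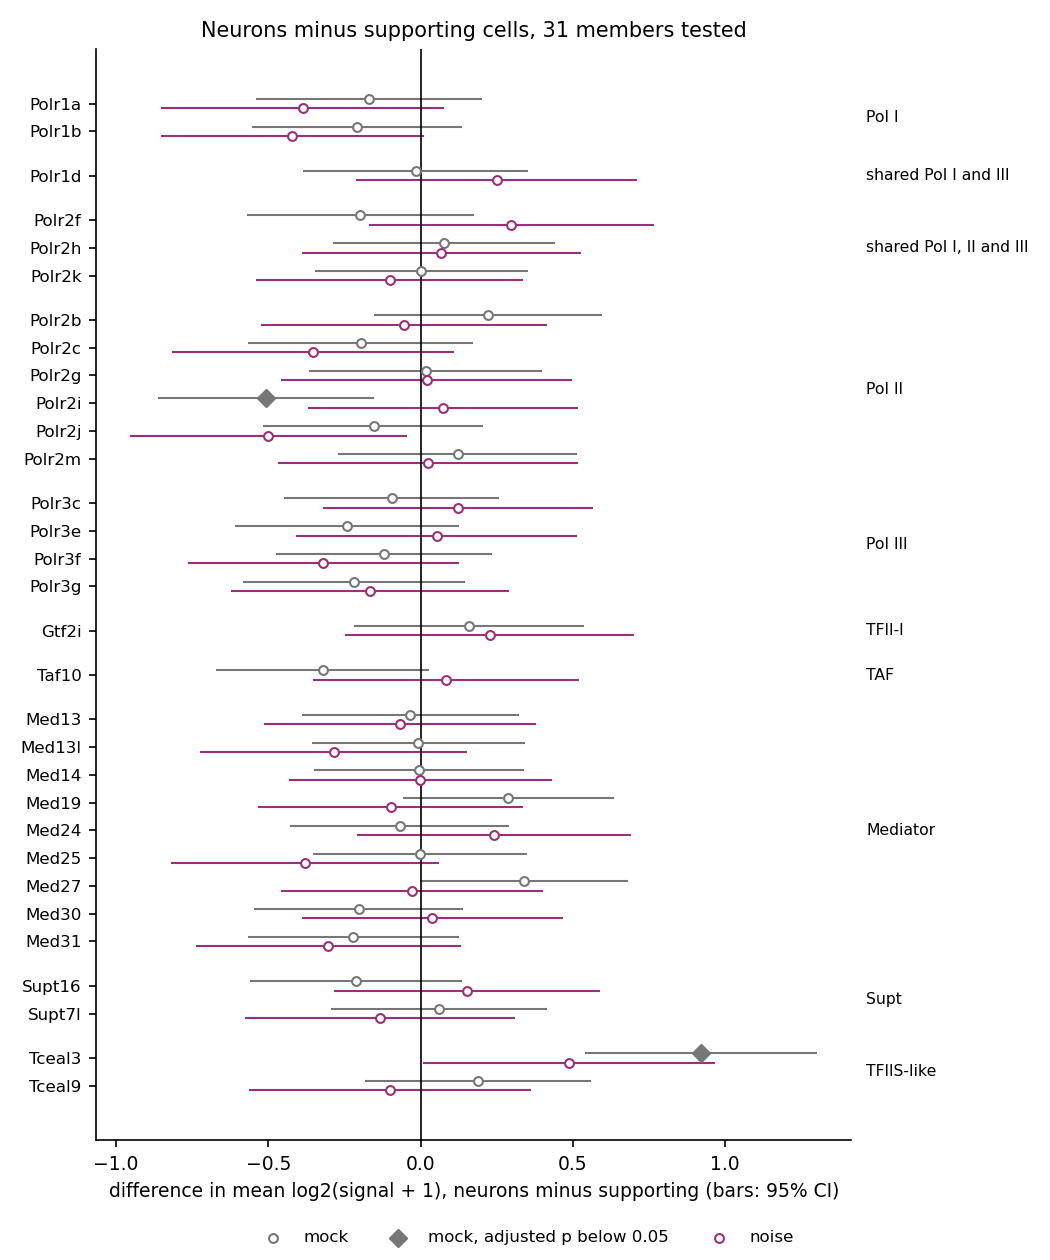
Difference in mean log2(signal + 1) between neuron and supporting-cell regions for the 31 tested members, grouped by complex, with 95% confidence intervals, under mock (grey) and after noise (purple). Filled diamonds mark the 2 members called under mock, Tceal3 at 0.92 and Polr2i at -0.51; none was called after noise.

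Polr2m was decided by 1 region. It encodes Gdown1, a protein that binds polymerase II and makes its activity depend on Mediator. In mock neuron replicate 1 its signal was 79.5, or 102 of the region's 25923 reads, the 7th highest of all genes there, while the other 15 mock neuron regions lay between 1.56 and 6.24. The supporting-cell region of the same captured area was at 1.56. Polr2m ran from 1.04 to 6.24 in noise neurons, from 1.56 to 7.80 in mock supporting cells and from 1.04 to 6.24 in noise supporting cells, with medians of 4.68, 4.42 and 4.03. With that region the mock neuron mean was 8.53 ± 18.99 (SD, n = 16) and the noise estimate in neurons -0.19, and without it the mean was 3.80 ± 1.52 (SD, n = 15) and the estimate 0.07 (adjusted p 0.928 by limma). edgeR, which works on the reads themselves, called Polr2m lower after noise (log2 fold change -1.03, adjusted p 0.00625) and higher in neurons than in supporting cells under mock (0.92, adjusted p 0.0214). Over all genes edgeR called 3.94% and 14.6% in these comparisons. Without mock neuron replicate 1, a run added after the data were seen, edgeR called 0 members after noise in neurons and, under mock, Tceal3 alone. No other member had a signal over 10 in more than 1 region: Polr2g and Polr2j each reached 10.9 once. The gene lies on chromosome 9 at 71478437 to 71485983, on the minus strand, and the 250 bases before its most upstream listed start (RefSeq, GRCm38.p6, chr9:71485984-71486233) hold 1 GC box, in capitals on the opposite strand.

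Polr2m: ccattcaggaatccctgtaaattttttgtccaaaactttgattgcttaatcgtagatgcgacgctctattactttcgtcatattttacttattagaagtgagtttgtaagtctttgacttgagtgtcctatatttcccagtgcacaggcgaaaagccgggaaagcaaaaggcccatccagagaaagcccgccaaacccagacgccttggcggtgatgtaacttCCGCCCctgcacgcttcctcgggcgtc

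To describe complexes as wholes, the reads of each gene beyond the first, which is the floor, were summed over members and divided by the same sum over all genes of the region. No test was made of these sums. Over all 46 members the median was 4.40 per 1000 reads in mock neuron regions (range 3.44 to 8.84) and 5.17 in noise neuron regions (3.82 to 6.80), and the supporting-cell regions had 5.20 under mock (3.07 to 6.27) and 6.24 after noise (4.90 to 7.18). The groups overlapped throughout. The polymerase subunits followed the same order, with medians of 2.17 (0.72 to 6.00), 2.30 (1.72 to 3.74), 2.85 (1.67 to 4.01) and 3.24 (2.51 to 4.40) per 1000, and the highest mock neuron value is the region with the high Polr2m signal. Mediator varied less between group medians, at 1.13, 1.09, 0.914 and 1.11 per 1000. For the Tceal genes the mock supporting-cell median, 0.259 per 1000, was the lowest, beside 0.511 in mock neurons, 0.518 in noise neurons and 0.510 in noise supporting cells. The sums rest on few reads: in all, the 46 members drew 57 to 437 reads per region.

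**Figure D5:**
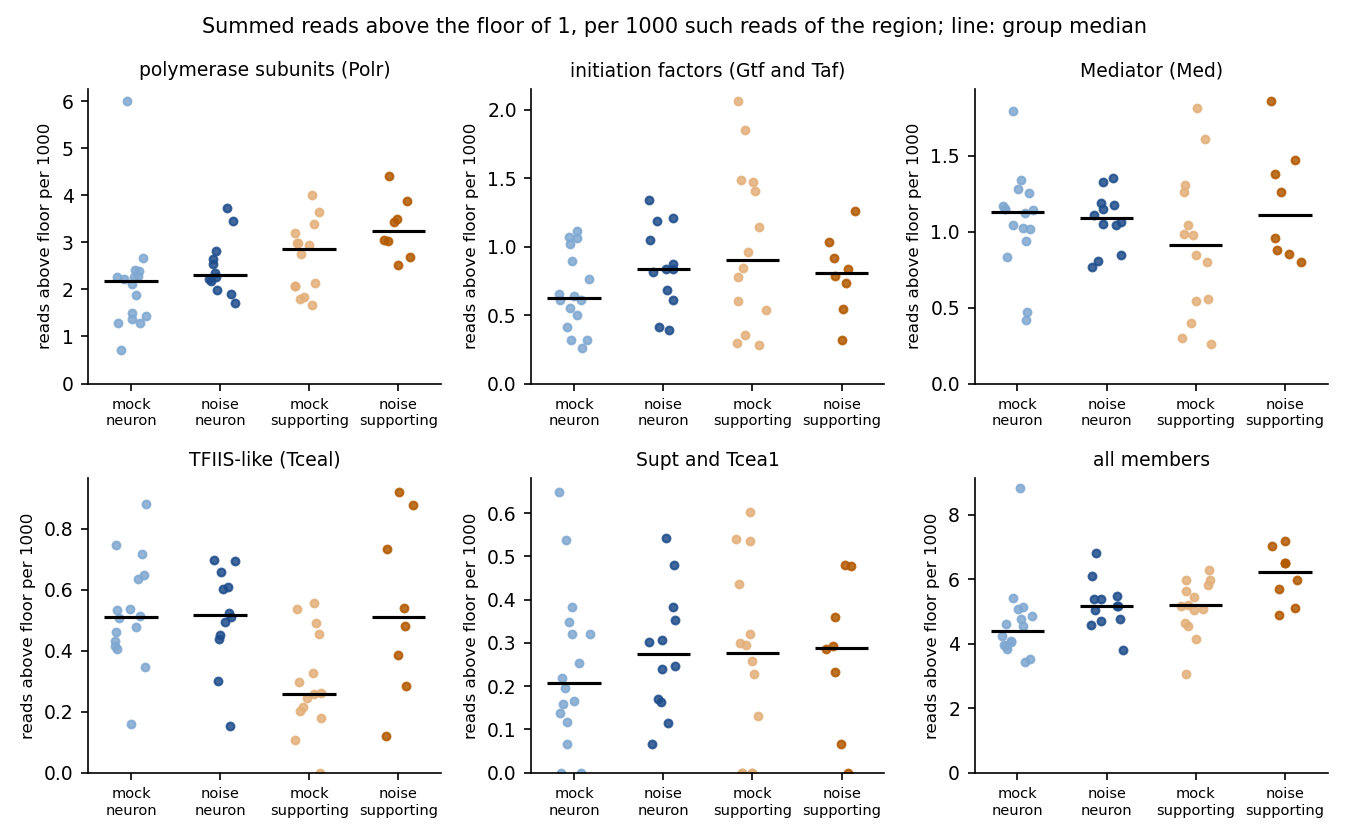
Reads above the floor of 1, summed over the members of a family and given per 1000 such reads of the region, for each of the 50 regions in the 4 groups, with a line at the group median. The polymerase subunits have medians of 2.17, 2.30, 2.85 and 3.24 per 1000 in mock neurons, noise neurons, mock supporting cells and noise supporting cells, and all groups overlap.

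Other genes of transcription, which the symbol rule leaves out, gave no call for noise by limma or edgeR either, and 1 by DESeq2. Of a list of 85 such genes (TATA-binding protein and its partners, kinases of TFIIH, Mediator and elongation, elongins, histone chaperones and others) 29 were listed and 22 tested. In the noise comparisons limma called 0 of 22 in neurons (4 with an unadjusted p below 0.05), 0 in supporting cells (1) and 0 for the difference (3). On the recovered reads edgeR called 0 in each (4, 0 and 1 with an unadjusted p below 0.05), and DESeq2 called 1 in neurons, where it called 2.86% of all genes, 0 in supporting cells and 0 for the difference (2, 0 and 1). The DESeq2 call was Rprd1b, which encodes a protein that binds the tail of polymerase II, at 0.55 with an adjusted p of 0.0432 by DESeq2 (0.145 by limma and 0.0961 by edgeR). Between region types under mock, limma called 2 of 22, both higher in neurons, a smaller share than the 20.0% of all genes called there. Eloc, the elongin C subunit, averaged 3.46 ± 1.83 (SD, n = 16) in mock neurons and 1.69 ± 0.88 (SD, n = 14) in mock supporting cells, which gave 0.66 ± 0.19 (SE) on the log2 scale and an adjusted p of 0.00341. Ssrp1, the partner of Supt16 in FACT, averaged 3.73 ± 2.15 and 2.17 ± 1.12 (SD), which gave 0.52 ± 0.19 (SE) and an adjusted p of 0.0343, whereas Supt16 itself had an estimate of -0.21 that did not pass. edgeR called Eloc alone (adjusted p 0.0416) and gave 0.113 for Ssrp1. DESeq2 called neither (adjusted p 0.161 for Eloc and 0.289 for Ssrp1), and its 1 call was Rprd1b, lower in neurons (-0.63, adjusted p 0.0342). After noise limma called 0 of 22 between region types (2 with an unadjusted p below 0.05), and edgeR and DESeq2 called 0 (1 and 0).

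The promoters of the members were read from RefSeq (GRCm38.p6) as the 250 bases before each listed start, and 39 of the 46 members had 47 such windows, some genes having several. These windows were rich in G and C, with a median of 61.2% against 52.4% over 32851 windows of all genes, and a median of 19 CG pairs against 6. A GC box (GGGCGG, either strand) occurred in 29 of 47 windows (61.7%, against 32.7% of all), and an ETS motif (CCGGAAG) in 11 (23.4%, against 6.91%). The E box CACGTG occurred in 9, against 6.02% of all windows, and CCAAT in 11 (23.4%, against 33.9%). A TATA box (TATAAA) occurred in 2 windows, those of Polr2c and Taf5 (4.25%, against 12.4% of all). Of the windows printed above, that of Tceal3 had 49.2% G and C with 5 CG pairs, that of Polr2i 61.6% with 21 and that of Polr2m 46.8% with 13. Further windows of Tceal3 had 53.2% with 6 and 64.8% with 16, and a further window of Polr2m had 37.6% with 3. A match describes the letters of a window, not a site in use.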

How the data were processed

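The members, lists and naming rule were chosen with earlier results of these data known. The authors deposited signal values, 1 file per region and 1 joint table of the same values; the submitters' processing notes name DRAGEN, mm10 and GRCm38, and the steps behind the scaling are not given in the sources used here. Each region's upper quartile is 3.12, and dividing by a region's lowest value gave whole reads (99.99% of values within 0.01; 1 gene not). Library construction in the labels describes total RNA, not GeoMx probes. Letters in place of numbers (66 entries, 0 in members) were taken as missing.

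The main test was limma 3.58.1 in R 4.3.3 (lmFit, eBayes with trend) on log2(signal + 1), 4 group means over 50 regions, Benjamini-Hochberg over 4686 genes. A fold change on this scale understates low genes. Region types were compared with the captured area as a random block (duplicateCorrelation, 0.0389); of 29 areas 21 held both types. Alternatives used edgeR 4.0.16, DESeq2 1.42.0 and SciPy 1.17.1 (exact permutation). The fit was also run on simulated reads, with effects planted only in better-covered genes and with regions drawn independently. That run therefore does not cover members near the floor or regions that share an animal. Named members are those called in any comparison, the 3 highest and 3 lowest estimates in each comparison, and a fixed list of catalytic, shared and core subunits; Taf5, Tceal5, Tceal8, Tceal9, Polr2c and Rprd1b were named after their values were seen. Same-numbered regions did not deviate together (all correlations at or below 0.061). Neuron and supporting-cell regions of 1 captured area hardly did so either (median correlation 0.0273 under mock and 0.0167 after noise). Whether the numbers pair regions therefore cannot be told from these correlations. Because limma called no member for noise, the planned permutation test of single members was not made, nor was it made for Polr2m, which edgeR called in neurons. All 46 symbols matched RefSeq.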

Additional observations from a re-analysis of the deposited data

Results flagged for a closer look

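Polr3e, a polymerase III subunit, stood apart in noise supporting-cell replicate 4, where its signal was 5.46 (7 reads), while the other 7 noise supporting-cell regions lay between 1.56 and 3.12. It was the only 1 of 28 quantities tested for a far value in that group, and chance alone gives about 1 in 20. The other groups held more than 10 regions and were not tested in this way.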

How the results depend on the processing

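For noise against mock in neurons, edgeR called 1 member (Polr2m) and the other alternatives 0; for noise in supporting cells, for the difference and for region types after noise every alternative called 0. Under mock, the 2 calls between region types fell to 1 (Tceal3) with the filter at the median, where Polr2i was not tested, with DESeq2, and with edgeR without mock neuron replicate 1, and leaving out each of 50 regions in turn gave 1 to 3; the lowest was without mock supporting-cell replicate 9, and the added call was Taf5, tested in 22 of these runs. The calls rose to 3 with the negative probe subtracted and with the olfactory receptor covariate (Med19, Med27 and Tceal3 in both) and without the filter (Polr2i, Taf5 and Tceal3). Tceal3 was called in all 63 alternatives (log2 fold change 0.51 to 1.65, adjusted p at most 0.0326). With the negative probe subtracted the median of the members moved to 0.28 for noise in supporting cells and to 0.22 between region types under mock. The medians over all genes in that setting were 0.09 and 0.23. For the members, edgeR without mock neuron replicate 1 gave a median of -0.14 under mock. The olfactory receptor covariate and DESeq2 moved the median of all genes under mock by 0.17 and -0.17. With the replicate number as a block the members' calls stayed at 0, 0, 0, 2 and 0, and the median for noise in neurons was -0.008; over all genes the block gave 19 calls in neurons against 31. The blocked calls under mock were again Polr2i and Tceal3. For noise in neurons the members' median was also below 0 with the olfactory receptor covariate (-0.081, against -0.076 over all genes). With edgeR it was -0.015, against -0.047 over all genes. Apart from the leave-one-out runs, the remaining alternatives gave medians from 0.004 (DESeq2) to 0.136 (filter at the median). Leaving out 1 region at a time kept the members' median for noise between -0.006 and 0.11 in neurons and between 0.043 and 0.135 in supporting cells. Causes of these shifts were not tested. Over all genes, the 31 calls for noise in neurons became 183 with edgeR, 133 with DESeq2, 7 with the negative probe subtracted and 3 with the olfactory receptor covariate; the 17 in supporting cells became 8, 11, 12 and 12; the 939 under mock became 679, 518, 1149 and 412, and the 388 after noise 327, 218, 418 and 282. Depth limits all of this: the median region had 80.5 to 152.5 reads over all 46 members, by group.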
